A study of Mus musculus with 43 samples.

Results

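Untreated wild-type astrocyte cultures made up 12 of the 43 libraries of this series, which sequenced RNA from mouse cortical astrocytes. The 12 were chosen by their labels alone: the 6 libraries labelled WT in the table of neurodevelopmental disorder models, and the 6 labelled Alone in the table of a treatment with BMP6, a secreted growth factor of the bone morphogenetic protein family. All 12 came from wild-type mice at postnatal day 7, whose cortical astrocytes were purified by immunopanning, a capture of cells on antibody-coated dishes, and kept for 12 days in a defined medium without serum. The WT libraries (cultures NAAC22, NAAC26, NAAC30, NAAC33, NAAC34 and NAAC35, n = 6) share the batch label 1. The Alone libraries (cultures NAAC76, NAAC81, NAAC91, NAAC120, NAAC122 and NAAC124, n = 6) carry the batch labels 2 to 7, and each shares its culture number and batch with a sister library that received BMP6 over the last 5 days. The 6 sister libraries are used here for 1 purpose, to set the differences between cultures against the difference left within a culture. The labels call the samples biological replicates and give neither strain nor sex nor the number of animals behind a culture. The disorder libraries (FXS, RTT and DS) and the 9 libraries of other preparations are not described. Expression is in FPKM, reads scaled by transcript length and by library depth (fragments per kilobase of transcript per M reads). The 2 tables were normalised separately, so WT and Alone are described side by side, each within its own table and with no test between them. Per-library values below follow the order of the cultures just given.

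Estimated depth was 10.5 M reads in WT NAAC33, the shallowest, 17.4 to 36.3 M in the other WT libraries and 25.9 to 36 M in Alone. Of 24537 genes, 12314 averaged at least 1 FPKM in WT and 12354 in Alone. Libraries correlated with one another at r = 0.983 to 0.997 in WT and 0.962 to 0.996 in Alone, across genes on the log2(FPKM + 0.5) scale, and no pair shared more than 1.92% of its values above 0, so no library was a copy of another.

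Astrocytes are the glial cells that clear glutamate from synapses, buffer potassium, sheathe blood vessels with their endfeet and secrete proteins that act on neurons. Immunopanned astrocytes in serum-free medium keep a process-bearing form, whereas serum pushes them towards a reactive, dividing state. The early postnatal cortex they come from also holds dividing glial precursors, the cells that line the ventricles with motile cilia, and the pericytes, smooth muscle cells and fibroblasts of blood vessels and meninges, and a cell of any of these kinds that passes the dish can persist or multiply in culture.

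Astrocyte markers had the largest sum of the marker lists in all 12 libraries, at a mean of 3.85% of summed FPKM in WT and 3.21% in Alone. Of 40 astrocyte markers, 39 averaged at least 1 FPKM in WT and 38 in Alone. Slc1a3, the glutamate transporter GLAST (chr15:8634124-8710807 on GRCm38), had 936, 983, 629, 729, 679 and 709 FPKM in the WT cultures and 603, 645, 729, 916, 847 and 597 FPKM in the Alone cultures. Its highest value was under 2 times its lowest in either table. Aldh1l1, a folate enzyme used as a pan-astrocyte marker, ranged over 75.4 to 127 FPKM (median 86.4) in WT and 57 to 165 FPKM (median 87.5) in Alone. Sox9, an astrocyte transcription factor, ranged over 55.5 to 70.6 FPKM (median 68.9) and 29 to 82.6 FPKM (median 67.8), low in Alone NAAC91 and Alone NAAC122. Defining markers that stayed low were Gjb6, the gap junction protein connexin 30, at no more than 0.27 FPKM in any of the 12, and S100b, a calcium-binding protein, at 5.83 ± 1.35 FPKM in WT and 2.0 ± 0.988 FPKM in Alone (SD, n = 6 each). Summed over the list, astrocyte markers reached 12803 to 14284 FPKM in WT and 6304 to 12611 FPKM in Alone, lowest in Alone NAAC91 and next lowest in Alone NAAC122 (7769.7 FPKM).

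Marker lists of other cell types, which differ in length, had lower sums, by amounts that differed by list. The 20 mural and fibroblast markers reached 3509 FPKM in WT NAAC33, where the 40 astrocyte markers had 14284 FPKM. The 10 oligodendrocyte precursor markers reached 1378 FPKM in Alone NAAC122, where the astrocyte markers had 7770 FPKM. That sum holds Olig1 and Olig2, which cultured astrocytes also make. Pdgfra and Sox10, more particular to the lineage, had their lowest Alone values in that same library. Several other markers were near 0. The 5 haemoglobin and red cell genes were at 0 in every library. Cldn5, a tight junction protein of brain endothelium, was at 0 in 11 of the 12, with 0.019 FPKM in WT NAAC34, and Pecam1 did not exceed 0.102 FPKM. Slco1a4, counted as an endothelial marker, was the exception in that list at 58.9 to 100.4 FPKM in WT. Among neuronal markers the vesicular transporters Slc17a7, Slc17a6 and Slc32a1 did not exceed 0.118 FPKM, while Map2, a microtubule protein also found in glial precursors, reached 88.7 ± 10.5 FPKM in WT and 102 ± 18 FPKM in Alone. The microglial receptor Cx3cr1 peaked at 1.1 FPKM in WT NAAC33 and 0.35 FPKM in Alone NAAC120. Ttr, the main secreted protein of the choroid plexus, was at 0 in 9 of the 12 libraries and did not exceed 0.387 FPKM. In libraries made from whole cultures, fewer cells of a type and less RNA per cell cannot be told apart.

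**Figure D1:**
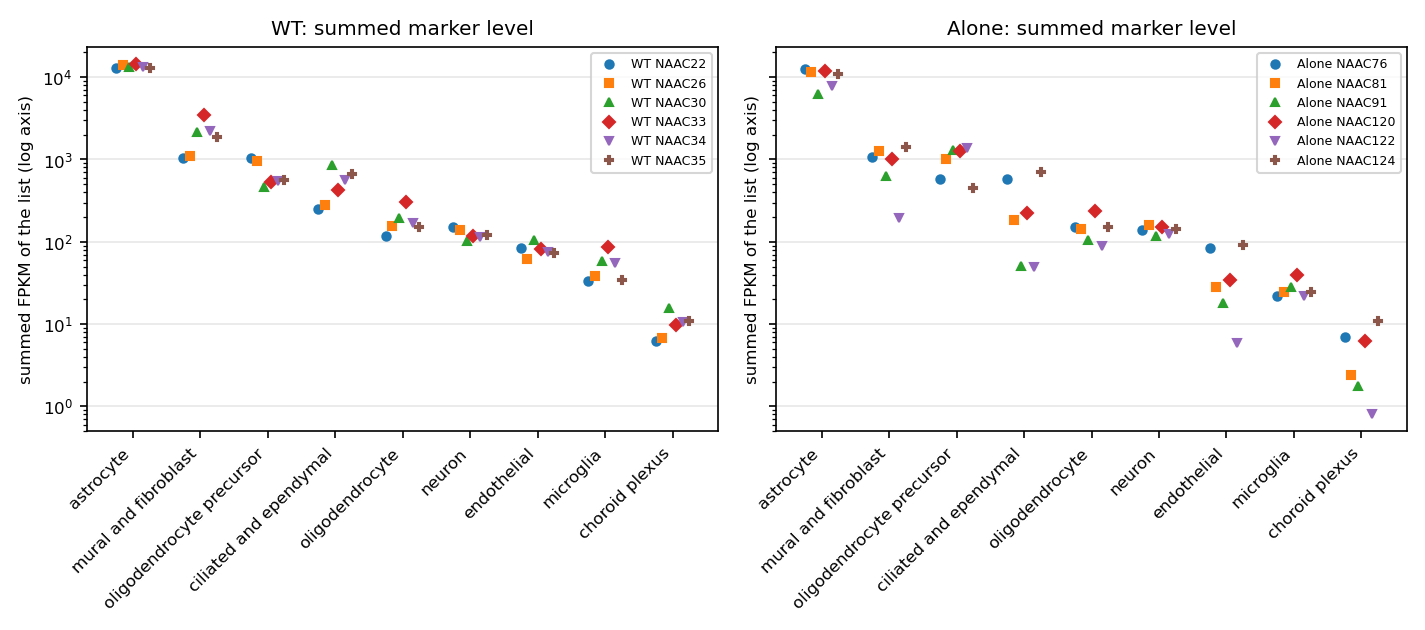
Summed FPKM of the marker genes of 9 cell types in each WT culture (left panel) and each Alone culture (right panel), on a log axis, with 1 symbol per library. Astrocyte markers lie above all other lists in all 12 libraries, and the ciliated and mural lists are spread widest among the larger lists, from 48.8 FPKM in Alone NAAC122 to 701 FPKM in Alone NAAC124 for the ciliated list.

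The plot of marker sums shows which lists followed the culture. Mural and fibroblast markers, those of pericytes, smooth muscle and connective tissue, summed to 1038, 1106, 2178, 3509, 2239.7 and 1881 FPKM in the WT cultures and 1068, 1260.0, 624, 1015, 197 and 1438 FPKM in the Alone cultures. WT NAAC33 was highest and WT NAAC22 lowest in the one table, Alone NAAC124 highest and Alone NAAC122 lowest in the other. Ciliated and ependymal markers summed to 247, 283, 859, 428, 562 and 664 FPKM in WT and 580.0, 183, 50.7, 226, 48.8 and 701 FPKM in Alone, so WT NAAC30 led this list where WT NAAC33 led the mural list, while Alone NAAC124 led both in Alone. Acta2 and Tagln, which smooth muscle shares with cells that build contractile fibres in culture, make up a large share of the mural sums.

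The most abundant transcripts coded for secreted and lipid-handling proteins, metal-binding proteins and the cytoskeleton. Apoe, the lipid carrier that astrocytes release, ranked first in both tables (chr7:19696244-19701310 on GRCm38). It had 3656, 4642, 4179, 5428, 4504 and 4088 FPKM in the WT cultures and 4032, 5064, 1411, 3948, 1619 and 3909 FPKM in the Alone cultures. Alone NAAC91 and Alone NAAC122 lay well under the other 4. Dbi, the acyl-CoA binding protein from which peptides acting at GABA receptors are cut, had rank 2 in WT at 3566 ± 852 FPKM (SD, n = 6) and rank 3 in Alone at 2075 ± 893 FPKM (SD, n = 6). The order of the leading genes was not the same in every culture: in WT NAAC30 Dbi (4748 FPKM) stood above Apoe (4179 FPKM), and in Alone NAAC91 and Alone NAAC122 the first place went to Igfbp2, a binding protein of insulin-like growth factors, with 3575 and 3191 FPKM.

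Of the 20 genes of highest mean FPKM in each table, 16 were the same. Besides Apoe, Dbi and Igfbp2 these were Vim, an intermediate filament (2175 ± 179 FPKM in WT and 1684 ± 481 FPKM in Alone, SD, n = 6 each), Fabp7, a fatty acid binding protein of radial glia and young astrocytes (1770.5 ± 563 and 1703 ± 651 FPKM), Cst3, the secreted protease inhibitor cystatin C (2272 ± 646 and 1101 ± 507 FPKM), and Sparc, a matrix-binding glycoprotein (1709 ± 300.4 and 1161 ± 447 FPKM). Scd2, which desaturates fatty acids, Pea15a, a phosphoprotein abundant in astrocytes, Ckb, the brain creatine kinase, Cpe, a carboxypeptidase that processes prohormones, Fth1, the ferritin heavy chain, the metallothioneins Mt1, Mt2 and Mt3, and Mir6236 completed the shared set. Fth1 has near-identical copies in the genome and its reads may be shared among them. Mir6236 is a very short annotated transcript, for which FPKM is inflated by length and is no measure of a mature miRNA: it read 1685, 92.2, 3102, 1231, 2199 and 1623 FPKM in WT, with WT NAAC26 far under the other 5. The 4 genes that made up the rest of the WT set, Mlc1, Tmsb4x, Clu and Pla2g7, ranked 21 to 32 in Alone, and the 4 of the Alone set, Gnas, Eef1a1, Serpine2 and Gstm1, ranked 21 to 32 in WT. Over the 100 most abundant genes 86 were shared, and over the 500 most abundant 445. The 20 most abundant genes took 9.72% to 11.5% of summed FPKM in WT and 7.76% to 10.5% in Alone, lowest in Alone NAAC91.

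**Figure D2:**
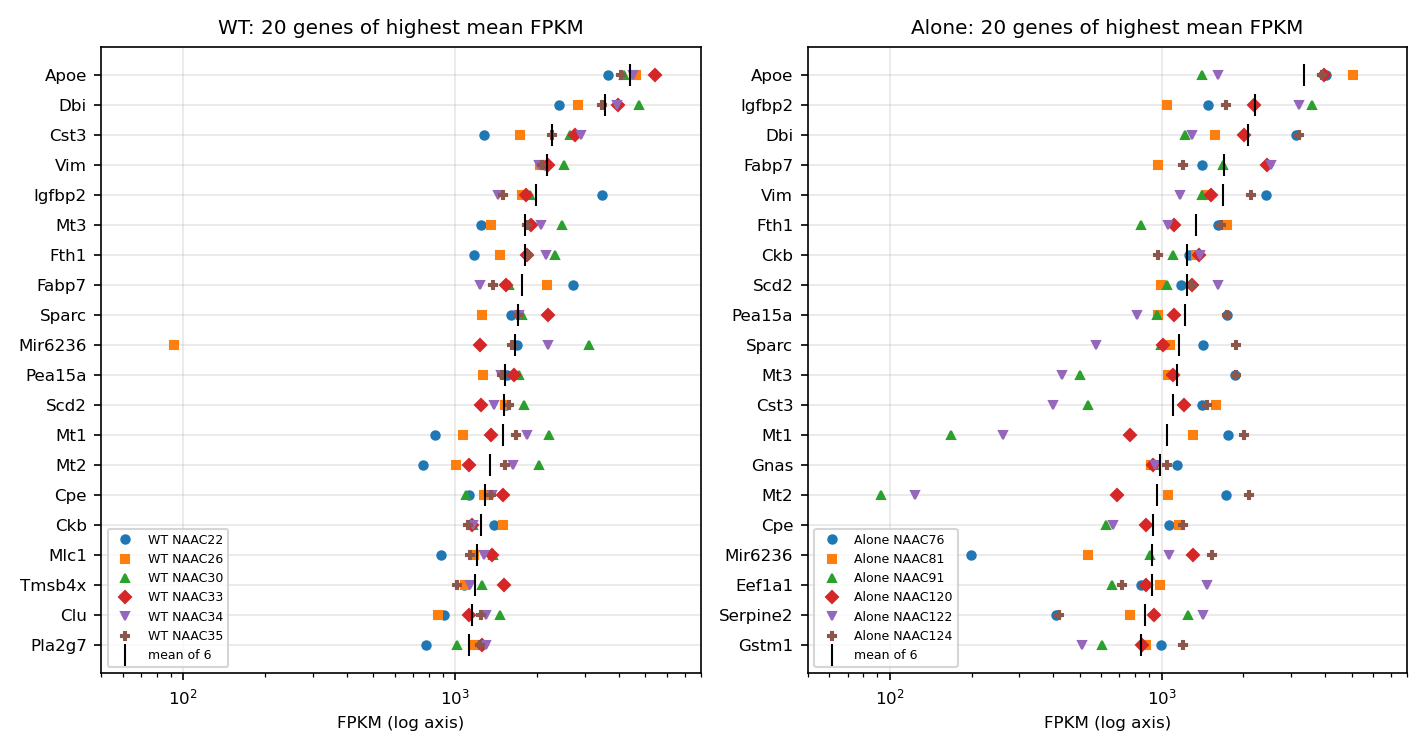
FPKM, on a log axis, of the 20 genes of highest mean FPKM in WT (left panel) and Alone (right panel), with 1 symbol per library and a bar at the mean of 6. Apoe leads both panels, Mir6236 lies at 92.2 FPKM in WT NAAC26, and Mt1 and Mt2 separate Alone NAAC91 and Alone NAAC122 from the other 4 Alone libraries.

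The metallothioneins, small cysteine-rich proteins that bind zinc and copper, showed both high level and wide spread. Mt2 had 761, 1008, 2044, 1123, 1629 and 1528 FPKM in WT and 1733, 1057, 93.2, 686, 123 and 2104 FPKM in Alone. WT NAAC30 was highest and WT NAAC22 lowest, and in Alone NAAC91 and Alone NAAC122 the level was far under that of any other Alone culture. Mt1 had 1755, 1305, 168, 764, 260.4 and 2009 FPKM in the Alone cultures and Mt3, the brain form, 1869.9, 1059.8, 503, 1103, 430.0 and 1880.0 FPKM, with the same pair of cultures lowest in each. Slc30a1, a zinc exporter whose gene responds to zinc through the same kind of element, stayed within 9.63 to 13.4 FPKM in WT and 8.18 to 10.6 FPKM in Alone. The promoter windows of Mt1, Mt2 and Mt3 are printed because the 3 genes lie in 1 cluster on chromosome 8 and were high and low in the same cultures. Each window runs from 250 bases before the start to 50 after it (RefSeq, GRCm38.p6), is written in the direction of transcription, and has in capitals each core of the metal response element, searched as TGCACNC or TGCGCNC on both strands.

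Mt1 (chr8:94178839-94179138, strand plus): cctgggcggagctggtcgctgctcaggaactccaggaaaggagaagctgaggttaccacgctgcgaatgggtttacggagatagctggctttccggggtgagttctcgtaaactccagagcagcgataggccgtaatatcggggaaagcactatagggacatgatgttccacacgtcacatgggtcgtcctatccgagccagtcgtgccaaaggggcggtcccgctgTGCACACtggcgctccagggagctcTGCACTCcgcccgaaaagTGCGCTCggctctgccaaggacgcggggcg

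Mt2 (chr8:94172368-94172667, strand plus): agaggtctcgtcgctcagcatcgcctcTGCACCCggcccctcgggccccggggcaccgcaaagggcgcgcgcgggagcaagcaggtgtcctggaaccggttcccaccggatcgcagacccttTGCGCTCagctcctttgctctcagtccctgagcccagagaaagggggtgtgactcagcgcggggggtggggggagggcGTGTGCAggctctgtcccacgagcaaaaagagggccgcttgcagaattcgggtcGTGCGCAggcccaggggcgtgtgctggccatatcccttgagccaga

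Mt3 (chr8:94152357-94152656, strand plus): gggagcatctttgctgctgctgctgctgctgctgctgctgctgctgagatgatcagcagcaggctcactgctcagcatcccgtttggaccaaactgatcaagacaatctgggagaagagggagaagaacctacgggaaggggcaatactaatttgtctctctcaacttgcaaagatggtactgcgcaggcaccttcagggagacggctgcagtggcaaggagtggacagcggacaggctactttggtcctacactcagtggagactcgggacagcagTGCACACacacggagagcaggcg

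The Mt1 window holds 3 cores, the Mt2 window 4 and the Mt3 window 1. A core was found in 25.7% of all 32841 promoter windows of that length, and 3 or more in 1.97%, while all 4 genes of the metallothionein list with a window, Slc30a1 included, had at least 1. The matches describe the letters of these windows and show no occupancy.

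Spread between cultures was measured for each gene as the SD of log2(FPKM + 0.5) over the 6 libraries of a table. Over all genes averaging at least 1 FPKM its median was 0.184 in WT and 0.235 in Alone, against 0.204 in FXS, 0.181 in RTT, 0.275 in DS (4 libraries) and 0.188 in BMP6. An SD of 1 or more was seen in 112 genes of WT (0.910%) and 491 genes of Alone (3.97%). Of 12051 genes measured in both, 66.7% had the larger SD in Alone. With each Alone library left out in turn, the median in Alone ran from 0.207 without Alone NAAC122 to 0.252 without Alone NAAC120. Alone libraries carry a batch label each and WT libraries share 1, and what that adds to the spread was not tested.

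**Figure D3:**
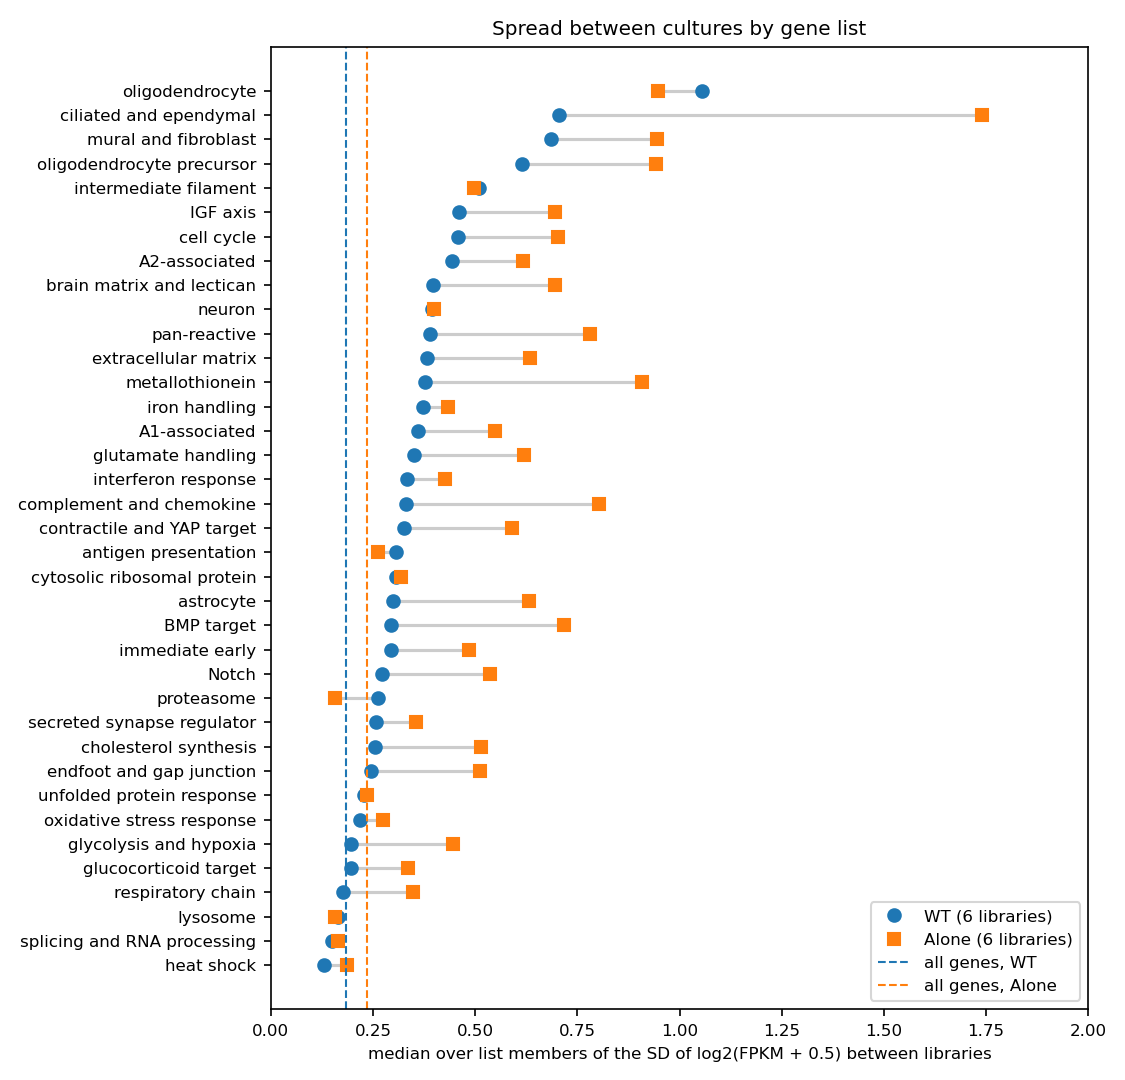
Median over the members of each gene list of the SD of log2(FPKM + 0.5) between libraries, for WT (circles) and Alone (squares); dashed lines mark the median over all genes of each table. Heat shock, splicing and lysosome lists lie at or under the lines in both tables, and the ciliated list in Alone lies farthest right at 1.74.

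The most stable programs in both tables were those of RNA processing, heat shock chaperones and degradation in the lysosome. Protein folding was not stable throughout. Unfolded protein response genes had a median SD of 0.227 in WT, above the 0.184 of all genes, and 0.235 in Alone, at the median of all genes (18 genes). Splicing and RNA processing genes had a median SD of 0.151 in WT and 0.164 in Alone (32 genes), lysosomal genes 0.164 and 0.157 (30 genes), and heat shock genes 0.13 and 0.187 (14 genes), all under or near the median of their table. Hspa8, a constitutive chaperone, had 115, 116, 121.7, 142, 120.4 and 123.7 FPKM in WT and 113, 126, 121.99, 129, 155 and 127 FPKM in Alone, a narrow band in both. Within that list Hspb1, a small chaperone that smooth muscle also makes in quantity, was an exception at 0.756 to 13.9 FPKM in WT, highest in WT NAAC33. Psap, the precursor of lysosomal saposins, varied from 889 to 1007 FPKM in WT, and Lamp1, a lysosomal membrane protein, from 391 to 430.3 FPKM in Alone.

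Among genes averaging at least 50 FPKM, the smallest SD in WT was that of Ywhag, a 14-3-3 adaptor protein, at 0.020, with 65.1, 62.8, 63.5, 63.4, 63.7 and 62.5 FPKM. In Alone the same gene had 54.1 to 78.5 FPKM and an SD of 0.21. Maged1, Stt3b, a subunit of the enzyme that attaches sugars to asparagine, and Cfl1, which severs actin filaments, were also among the 10 steadiest genes of WT. In Alone the steadiest gene was Glyr1, a nuclear reader of histone marks, at 52.5, 52.9, 51, 52.6, 52.7 and 51 FPKM (SD of 0.024 on the log2 scale), followed by Ptpn11, a signalling phosphatase, and Ivd, an enzyme of leucine breakdown, at 51.2 to 54.5 and 63.8 to 68.2 FPKM. Ptpn11 was close to constant in WT too (52.3 to 59 FPKM). None of the 10 steadiest genes of the one table was among the 10 of the other. Actb, the beta-actin used as a reference in many assays, had 615 to 751 FPKM in WT and 563 to 792 FPKM in Alone.

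Respiratory chain genes had a spread under the median of all genes in WT, proteasome genes in Alone, and ribosomal protein genes in neither table. Most members of each list had their highest or lowest value in the same culture. Respiratory chain genes had a median SD of 0.177 in WT (68 genes) and 0.348 in Alone (69 genes), where Alone NAAC122 was highest for 63 genes and Alone NAAC81 lowest for 55. Atp5b, a catalytic subunit of ATP synthase, had 527, 539.6, 1079, 759, 1236 and 513 FPKM in Alone. Proteasome genes went the other way, with 0.261 in WT and 0.157 in Alone (31 genes each), and WT NAAC33 was highest for 25 of them. Cytosolic ribosomal proteins, many of which share reads with near-identical copies, had 0.306 in WT (58 genes, lowest in WT NAAC22 for 48) and 0.319 in Alone (60 genes, highest in Alone NAAC122 for 55). Without Alone NAAC122 the last value was 0.182. Over all genes, Alone NAAC122 was highest for 3461 of 12354 and WT NAAC33 for 3763 of 12314. WT NAAC22 was lowest for 4017 of 12314 genes (32.6%). A library can be the extreme for many lists at once. Counts of highest and lowest libraries by list, here and below, therefore describe the values and mark no list as special.

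Vascular mural genes were widely spread in WT, with WT NAAC33 at the top and WT NAAC22 at the bottom. Of the 20 genes of largest SD in WT, 14 were highest in WT NAAC33 and 12 lowest in WT NAAC22. Over all genes these shares were 30.6% and 32.6%. Vtn, the adhesive glycoprotein vitronectin made by pericytes, had 11.4, 34.4, 60.3, 159.5, 96.1 and 72.6 FPKM. Rgs5, a pericyte regulator of G protein signalling, had 22.1, 45.5, 55.3, 203, 92.9 and 79.5 FPKM in the same order. Des, the muscle filament desmin, had 0.65, 2.09, 4.71, 12.1, 8.79 and 6.14 FPKM, and Rgs4, a relative of Rgs5, 4.47 to 97.4 FPKM. WT NAAC34 stood next to WT NAAC33 for each of these and WT NAAC22 was lowest. Of 17 mural and fibroblast genes with a mean of at least 1 FPKM, 13 were highest in WT NAAC33 and 13 lowest in WT NAAC22, and the median SD was 0.686. Contractile and YAP target genes, which share Acta2 and Tagln with that list, were highest in WT NAAC33 for 20 of 23: Myl9, a myosin light chain, had 151, 144, 219.9, 434, 256 and 225 FPKM, and Ctgf, a secreted YAP target, 386, 434, 684, 1065, 792 and 642 FPKM. WT NAAC33 was also the shallowest library, and the part of depth in these values was not tested.

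In the Alone cultures the same vascular genes were also widely spread, but around other libraries. Vtn had 7.54, 62.2, 25.1, 28.8, 9.5 and 15 FPKM, Rgs5 23.4, 87.5, 55.5, 37.5, 12.9 and 45.9 FPKM and Col3a1, a fibrillar collagen, 8.12, 23.7, 9.11, 14.1, 2.22 and 14.1 FPKM. Alone NAAC81 was highest for all 3 and for 10 of 16 mural and fibroblast genes, and Alone NAAC122 was lowest for 13. The median SD of the list was 0.944 and 0.55 without Alone NAAC122. Contractile and YAP target genes were lowest in Alone NAAC122 for 20 of 23, among them Acta2, the smooth muscle actin, at 382, 509, 210.4, 349.8, 52.1 and 529 FPKM, and the median SD of 0.589 was 0.283 without that library. Ogn, a proteoglycan placed in the mural list as a marker of meningeal fibroblasts, did not follow the pericyte genes: it had 103, 20.7, 5.55, 25.1, 2.6 and 125 FPKM, highest in Alone NAAC124 and Alone NAAC76, the cultures rich in ciliated cell genes.

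Genes of motile cilia were the widest-spread program in Alone and among the widest in WT. Foxj1, the transcription factor that directs the motile cilium program (chr11:116330704-116335499 on GRCm38), had 84.8, 81.8, 180.1, 101, 126 and 138 FPKM in WT and 174, 74.6, 28.8, 75, 24.9 and 188 FPKM in Alone. Rsph1, a protein of the radial spoke that gives cilia their beat, had 15.8, 20.2, 73, 33, 46.2 and 59.5 FPKM in WT and 45.1, 10.8, 1.26, 17.4, 2.17 and 60.2 FPKM in Alone. The 6 Alone cultures fell into the same order for both genes but for the lowest pair: Alone NAAC124 and Alone NAAC76 were high, Alone NAAC120 and Alone NAAC81 were intermediate, and Alone NAAC91 and Alone NAAC122 had very little. Mcidas, which starts the multiciliated cell fate, ranged over 0.028 to 7.45 FPKM (median 1.3) in Alone, and Ccdc153, a protein of motile cilia, over 0.036 to 15.7 FPKM (median 2.25). Of 24 ciliated genes averaging at least 1 FPKM, Alone NAAC124 was highest for 23, and Alone NAAC91 or Alone NAAC122 was lowest for all, 13 and 11. In WT, WT NAAC30 was highest for 20 of 25 and WT NAAC22 lowest for 17, against 19.4% and 32.6% of all genes. The median SD was 0.704 in WT and 1.74 in Alone. Tppp3, Traf1, Lrrc23, Meig1 and Pifo, named among the 20 genes of largest SD in Alone, had the same high and low cultures, with Pifo, a regulator of the primary cilium, at 18.7, 3.14, 0.221, 7.0, 0.299 and 25.2 FPKM.

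RFX transcription factors, which act with Foxj1 on genes of cilia, bind a paired element called the X-box. Rfx2 had 2.29 to 13.3 FPKM and Rfx3 4.51 to 11.9 FPKM in Alone, both lowest in Alone NAAC91 or Alone NAAC122. The windows of 3 genes of the list are printed to show where a strict X-box, searched as GTNNCC, any 3 bases and then GNAAC on both strands and written in capitals, lies relative to the start (window and source as for the metallothioneins).

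Pifo (chr3:106001448-106001747, strand minus): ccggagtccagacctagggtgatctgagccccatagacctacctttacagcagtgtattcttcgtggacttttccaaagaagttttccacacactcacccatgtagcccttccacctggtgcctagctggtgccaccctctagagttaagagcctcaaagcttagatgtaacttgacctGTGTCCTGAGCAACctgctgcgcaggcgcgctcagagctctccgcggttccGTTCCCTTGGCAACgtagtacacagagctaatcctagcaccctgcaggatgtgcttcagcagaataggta

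Enkur (chr2:21205316-21205615, strand minus): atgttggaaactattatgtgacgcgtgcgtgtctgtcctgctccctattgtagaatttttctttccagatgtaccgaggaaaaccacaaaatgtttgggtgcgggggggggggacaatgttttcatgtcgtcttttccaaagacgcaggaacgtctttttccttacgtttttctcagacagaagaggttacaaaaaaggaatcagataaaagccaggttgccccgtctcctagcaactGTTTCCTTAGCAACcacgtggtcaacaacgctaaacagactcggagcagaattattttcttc

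Hydin (chr8:110266727-110267026, strand plus): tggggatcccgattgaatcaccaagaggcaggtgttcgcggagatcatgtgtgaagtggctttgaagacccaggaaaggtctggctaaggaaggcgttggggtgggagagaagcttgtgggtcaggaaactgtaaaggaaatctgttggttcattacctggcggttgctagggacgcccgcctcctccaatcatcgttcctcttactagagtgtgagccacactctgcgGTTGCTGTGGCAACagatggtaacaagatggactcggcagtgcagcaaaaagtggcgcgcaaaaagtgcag

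A strict X-box was present in 5 of 35 promoter windows of the ciliated list (14.3%), those of Cfap44, Enkur, Hydin, Pifo and Tekt4, and in 2.17% of all 32841 windows. Pifo has a pair of them. Enkur, a calcium channel-binding protein of the axoneme, had 31.4, 10.02, 2.31, 10.3, 1.13 and 34.6 FPKM in Alone, and Hydin, a protein of the central pair of microtubules, 0.851, 0.314, 0.017, 0.469, 0.027 and 1.37 FPKM, a low level at which the order of the cultures was the one of Foxj1 but for the lowest pair. The other 30 windows held no such run of letters, which says nothing of whether RFX proteins bind them.

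WT NAAC22 stood apart from the other WT cultures by genes of the insulin-like growth factor axis and the cell cycle. Igfbp2 had 3464, 1764, 1883, 1819.7, 1435 and 1504 FPKM, Igfbp3 629.6, 329.5, 257, 245, 200.3 and 210.0 FPKM and Ccnd1, the cyclin that carries cells into the cycle, 465, 188, 84.8, 50.7, 50.9 and 72 FPKM (Ccnd1 was chosen after its values were seen). Mki67, a nuclear protein present only in dividing cells, had 10.7, 4.63, 1.54, 1.19, 1.57 and 3.25 FPKM. WT NAAC22 was highest for 37 of 40 cell cycle genes, against 18.8% of all genes, and WT NAAC26 had the next highest value of Ccnd1 and Mki67. The median SD of cell cycle genes was 0.457 in WT and 0.704 in Alone, where Alone NAAC122 was highest for 39 of 40. WT NAAC22 was also lowest in endfoot and gap junction genes, whose sum was 2005 FPKM against 2524 to 2816 FPKM in the other 5. Aqp4, the water channel of endfeet, had 182, 279.8, 295, 256, 327 and 266 FPKM, and Gja1, the gap junction protein connexin 43, 196, 303, 331, 296, 387 and 342 FPKM. The median SD of the endfoot list in WT was 0.245 and 0.133 without WT NAAC22, and that of the IGF axis was 0.461 and 0.293.

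Alone NAAC91 and Alone NAAC122 had low levels of several genes of mature astrocytes. Of the 38 astrocyte markers averaging at least 1 FPKM, Alone NAAC91 was lowest for 19, Alone NAAC122 for 6, and the other cultures for 1 to 6 each. Gfap, the intermediate filament of mature and reactive astrocytes (chr11:102887336-102897200 on GRCm38), had 1309.6, 481, 23.7, 226, 26.9 and 662 FPKM in Alone, and its range in WT was 428 to 1038 FPKM. Aqp4 had 179, 119, 14.1, 115, 16.4 and 173 FPKM, Kcnj10, the potassium channel Kir4.1, 229.8, 230.5, 51.1, 171, 42.3 and 247 FPKM, and Ntsr2, a neurotensin receptor restricted to astrocytes in the brain, 53.4, 48.8, 1.29, 23.1, 1.97 and 41.6 FPKM. Alone NAAC91 and Alone NAAC122 held the 2 lowest values of each. Clu, a secreted chaperone, C4b, a complement component, and Draxin, an axon guidance protein, had the same 2 lowest cultures, with C4b at 89, 55.2, 3.11, 32.6, 1.87 and 49.3 FPKM and Draxin at 26.8, 38.9, 0.44, 20.9, 0.518 and 23.1 FPKM. Glutamate handling was less uniform: Slc1a2, the transporter GLT-1, had 40.01, 60.8, 21.1, 68.6, 30.7 and 37.8 FPKM and was low in the pair, whereas Slc1a3 was not. Several genes were high in the pair instead. Nptx1, a secreted pentraxin that gathers AMPA receptors at synapses, had 0.807, 1.93, 30.7, 10.5, 68.9 and 0.378 FPKM in Alone, and Tnc, a matrix protein of developing and injured brain, 11.8, 14.8, 99.5, 34.1, 156 and 13.3 FPKM. Igfbp4 had 32.1, 46.2, 276, 219.8, 643 and 23.7 FPKM, Ccnd1 104, 105, 904, 311, 995 and 116 FPKM and Jag1, a Notch ligand, 1.36, 3.26, 12.9, 4.01, 17.9 and 1.83 FPKM. For all 5, Alone NAAC120 had the next value. Nptx1 was highest in WT NAAC22 in the other table, at 5.28, 1.58, 0.153, 0.197, 0.362 and 0.399 FPKM.

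The leading principal component of log2(FPKM + 0.5) held 59.8% of the variance between WT libraries and 72.8% between Alone libraries. It placed WT NAAC22 and WT NAAC26 at one end (38.7 and 23.3) and WT NAAC33 and WT NAAC30 at the other (-22.5 and -18.7), and Alone NAAC122 and Alone NAAC91 at one end (57.8 and 41.9) and Alone NAAC124 and Alone NAAC76 at the other (-41.2 and -39.3). Each component was computed within its own table, and the signs were set so that Gfap lies on the negative side of both. All 25 ciliated genes in WT and all 24 in Alone lay on the negative side, while 39 of 40 cell cycle genes in WT and all 40 in Alone lay on the positive side, against 40.1% and 47.1% of all genes. Mural genes were negative for all 17 in WT and for 14 of 16 in Alone. Astrocyte markers were mixed, positive for 21 of 39 in WT and 11 of 38 in Alone. The ribosomal, respiratory and proteasome lists did not keep a side: 3 of 58, 6 of 68 and 0 of 31 genes were positive in WT, and 60 of 60, 67 of 69 and 26 of 31 in Alone. Cholesterol synthesis genes were positive for 9 of 23 in WT and 23 of 23 in Alone. Across genes, loadings of the 2 components correlated at r = 0.512 and the SDs of the 2 tables at r = 0.647, figures that describe these genes, which are not independent of one another.

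**Figure D4:**
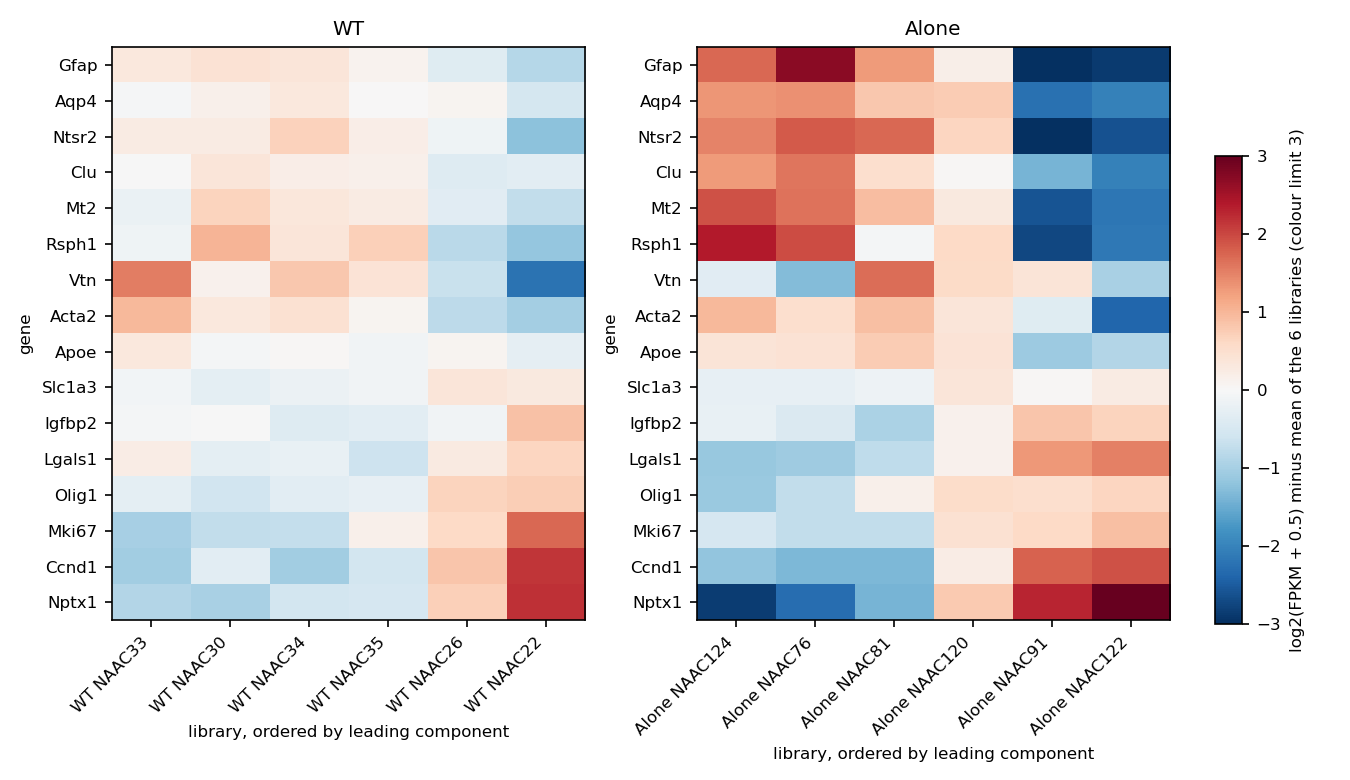
Level of 16 genes in each library as log2(FPKM + 0.5) minus the mean of the 6 libraries of its table, with WT (left panel) and Alone (right panel) libraries ordered by the leading component; red is above and blue below the mean, and colours stop at 3. Gfap is low at the right end of both panels by the choice of sign. Ntsr2, Mt2 and Rsph1 are low there too, and Ccnd1 and Nptx1 high, with paler colours in WT, while Vtn follows the order in WT and not in Alone. The 16 genes are a selection, and Ccnd1 and Lgals1 were chosen after their values were seen.

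Cholesterol synthesis genes, BMP targets and secreted regulators of synapses were not all highest in the same cultures. Cholesterol, which astrocytes make and pass to neurons on apolipoprotein particles, is built by a chain of enzymes under the transcription factor SREBP2. Of 23 genes of this list WT NAAC30 was highest for 20, Alone NAAC122 was highest for 21 and Alone NAAC81 lowest for 21, with a median SD of 0.254 in WT and 0.515 in Alone. Nsdhl, a sterol dehydrogenase late in the chain, had 22, 15.3, 34.2, 17.3, 19.4 and 21 FPKM in WT and 21.1, 10.9, 29.2, 20.8, 40.2 and 20.2 FPKM in Alone, and Insig1, which holds SREBP2 back when sterols are plentiful, 42.8, 20.8, 83.5, 49.4, 136 and 42.8 FPKM in Alone. Both were highest in Alone NAAC122, next in Alone NAAC91 and lowest in Alone NAAC81.

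BMP signals act through SMAD proteins on targets such as the Id genes, which hold back differentiation factors. RNA of the ligand was present without treatment: Bmp6 had 67.9, 49.1, 109, 92.2, 84.6 and 86.3 FPKM in WT and 89.4, 33.2, 14.1, 36.3, 6.48 and 106 FPKM in Alone, high in Alone NAAC124 and Alone NAAC76 and lowest in Alone NAAC122. Id1 and Id3 followed in Alone, with 102, 72.2, 56.8, 79.8, 34.9 and 127 and 178, 88.4, 71.9, 107, 65.3 and 192 FPKM, and stayed within 85.2 to 132 and 140.1 to 231 FPKM in WT. Bmp6, Id1 and Id3 shared the order of Alone cultures seen for Foxj1. Of 18 BMP targets Alone NAAC124 was highest for 12 and Alone NAAC122 lowest for 11. Those libraries also lay at opposite ends of the leading component of Alone (-41.2 and 57.8). The counts are therefore not read as particular to BMP targets. The median SD was 0.295 in WT and 0.718 in Alone. Among the secreted proteins by which astrocytes act on synapses, Sparcl1, also called hevin, ranged over 124.1 to 221 FPKM in WT and 148 to 222 FPKM in Alone, and Thbs1, a thrombospondin, had 149, 161, 95, 123, 25.9 and 202 FPKM in Alone, lowest in Alone NAAC122. Chrdl1, which promotes synapse maturation and binds BMPs, had 16.7, 6.62, 3.97, 6.94, 5.53 and 17.7 FPKM in Alone, high in Alone NAAC76 and Alone NAAC124 and lowest in Alone NAAC91. Its order of Alone cultures was that of Rsph1. The median SD of the secreted synapse regulators was 0.258 in WT and 0.355 in Alone.

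Oligodendrocyte lineage genes split into sets that did not vary together. Olig1 and Olig2, transcription factors of the lineage that cultured astrocytes also make, were abundant: Olig2 had 185, 152, 79.2, 89.8, 109 and 93.4 FPKM in WT and 119, 189, 323, 244, 318 and 95.2 FPKM in Alone, highest in WT NAAC22 and in Alone NAAC91 and Alone NAAC122. Pdgfra, the growth factor receptor that defines precursors, had 0.311, 0.672, 6.98, 0.751, 2.17 and 8.83 FPKM in WT and 10.9, 14.2, 0.162, 1.62, 0.088 and 5.97 FPKM in Alone, and Sox10, a lineage-restricted factor, 0.502, 0.591, 3.62, 0.873, 1.03 and 4.08 and 5.73, 9.5, 0.257, 1.64, 0.043 and 3.59 FPKM. Both were highest in WT NAAC35 and WT NAAC30 and in Alone NAAC81, Alone NAAC76 and Alone NAAC124, and lowest where Olig2 was highest. Mbp, a myelin protein, was high in a single culture of each table. Mbp had 5.57, 10.7, 19.7, 68.9, 4.18 and 3.08 FPKM in WT and 7.76, 3.68, 12.8, 60.4, 5.2 and 7.16 FPKM in Alone, and the oligodendrocyte list was highest in WT NAAC33 for 6 of 6 genes and in Alone NAAC120 for 6 of 8. The median SD of that list, 1.05 in WT and 0.946 in Alone, was 0.653 without WT NAAC33 and 0.507 without Alone NAAC120. Microglial genes peaked in the same libraries: C1qa, a complement component that microglia make, had 0.485, 0.636, 2.96, 7.02, 2.66 and 0.264 FPKM in WT and 0.128, 0.063, 0.40, 1.78, 0 and 0.105 FPKM in Alone. WT NAAC33 had the lowest depth of the 12, whose part in these values was not tested.

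Whether the spread between Alone cultures exceeds that within a culture was tested with the sister libraries, in limma's moderated F-test of the 6 cultures over 12 libraries with the treatment as a term that is not reported. A gene called here differs between cultures by more than its sister libraries differ after the mean effect of BMP6 is taken out. The sister libraries share a batch label, so culture and batch cannot be told apart. At an adjusted p under 0.05 (Benjamini-Hochberg), 2366 of 12185 genes were called, which is 19.4%. All 23 of the 23 ciliated genes tested were called, of 32 listed. The other 9 were not in the table or did not pass the filter on low values, which a gene can pass through its high cultures alone, so the count is a description. Of the other lists that hold members of astrocyte identity and of other cells, 7 of 10 endfoot and gap junction genes, 9 of 15 mural and fibroblast genes, 16 of 31 extracellular matrix genes and 15 of 37 astrocyte markers were called. Of the lists with few members tested, oligodendrocyte precursor genes were called for 4 of 6, oligodendrocyte genes for 2 of 3, choroid plexus genes for 2 of 2 and endothelial genes for 1 of 1. None of 5 neuronal genes was called by limma, nor the 1 microglial gene tested, with 1 of each at an unadjusted p under 0.05. The calls rest heavily on culture NAAC124: without it 79 of 12130 genes were called (0.651%), 3 of 37 astrocyte markers, 1 of 10 endfoot genes and 1 of 15 mural genes among them. No ciliated gene of 16 tested was then called, with 16 at an unadjusted p under 0.05.

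Against the 19.4% of all genes, other lists had lower, similar and higher shares called. Splicing genes were called for 8 of 32, lysosomal genes for 8 of 30, respiratory chain genes for 11 of 69, proteasome genes for 1 of 31 and contractile and YAP target genes for 1 of 23. Ribosomal protein genes were called for 21 of 60 and cholesterol synthesis genes for 9 of 24. No cell cycle gene of 39 was called by limma, with 18 at an unadjusted p under 0.05, although their levels in Alone were widely spread: Mki67 had 4.2, 4.23, 11.3, 10.3, 14.2 and 5.05 FPKM in Alone, and 2.12, 1.74, 2.58, 3.08, 2.11 and 3.68 FPKM in the sister libraries, where the order of the cultures was another. Without culture NAAC122, 20 of 39 cell cycle genes were called, against 20.6% of all genes.

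Of the genes named by the smallest p, Vtn was the member that had also stood out in WT (adjusted p = 0.00827, limma). Its sister libraries had 4.64, 28.3, 13.2, 24.6, 5.96 and 11.3 FPKM, in order of culture, and culture NAAC81 was highest and culture NAAC76 lowest in both sets. Lcn2, an iron-carrier-binding protein made by reactive astrocytes (adjusted p = 0.00827, limma), had 4.29, 2.54, 11.3, 3.77, 20.3 and 0.847 FPKM in Alone and 10.2, 9.02, 27.5, 6.25, 34.5 and 1.36 FPKM in the sister libraries, highest in culture NAAC122 and lowest in culture NAAC124 in both. Bace2, a membrane protease, had 16.5, 5.6, 2.66, 6.83, 3.77 and 16.1 FPKM in Alone, with cultures NAAC76 and NAAC124 high, and 19.7, 5.42, 3.14, 7.37, 6.45 and 20.2 FPKM in the sister libraries (adjusted p = 0.00827, limma). Myb, a transcription factor with a role in multiciliated cells, and Mns1, a protein inside ciliary microtubules, were named by the same rule and had their highest Alone values in culture NAAC124, at 13.4 and 29.1 FPKM. Adra2a, P3h2, Pkp4 and Rap1gap completed the named set. Olig2 passed as well (adjusted p = 0.00827, limma), whereas Gfap passed with a larger p (adjusted p = 0.0375, limma): its sister libraries had 1733, 563, 230.3, 538, 347 and 1238 FPKM, so that the low pair NAAC91 and NAAC122 was again lowest but with a smaller gap. Under the 16 other settings run, Vtn, Bace2 and Gja1 were called in 16, Lcn2, Myb, Mns1 and Olig2 in 15, Gfap in 10, and Aqp4 in 7.

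**Figure D5:**
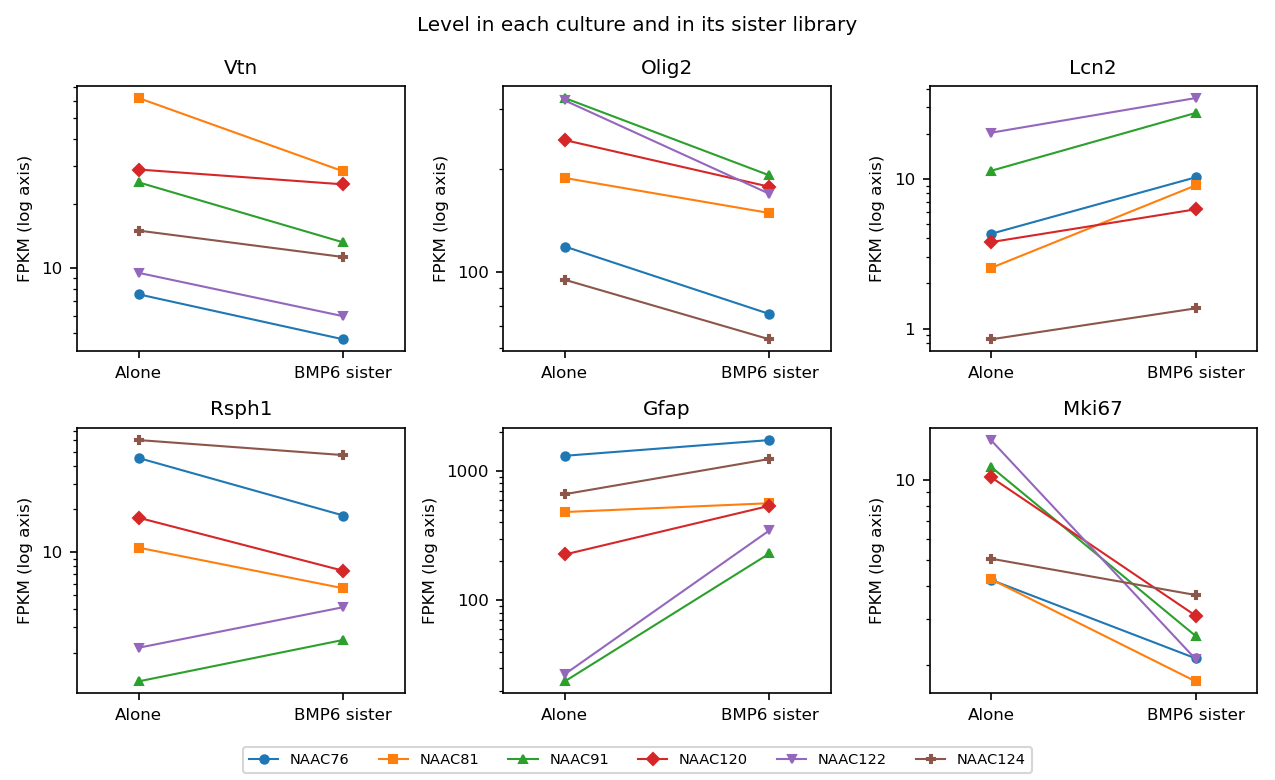
FPKM, on log axes, of 6 genes in the Alone library of each culture (left of each panel) and in its BMP6 sister library (right), joined by a line per culture. Lines for Vtn, Olig2, Lcn2 and Rsph1 keep much of their order, the lines for Gfap draw together on the sister side, and those for Mki67 cross.

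The genes of largest spread in WT, a table the test did not use, were often called in the culture test of Alone and BMP6 libraries. Of the 200 genes of largest SD in WT among those averaging at least 5 FPKM, 198 were tested and 138 called (69.7%), and of the 200 of smallest SD 22 were called (11%). The median SD in Alone was 1.01 for the genes of largest SD and 0.150 for the set of smallest SD. Without culture NAAC124 the share called among the genes of largest WT spread was 6.32%, against 0.651% of all genes, and without culture NAAC76 it was 37.2%, against 8.88% of all genes. At the very top the tables had little in common: none of the 20 genes of largest SD was shared, and 63 of 200 were (31.5% of each list).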

How the data were processed

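The deposited FPKM values, 1 column per library, were made by the authors and are described as FPKM per the file headers. The submitters' processing notes list FastQC 0.11.8, STAR 2.5.3a, HOMER 4.10.4, DESeq2 1.14.1 and the build mm10. Libraries were 50-base single-end reads of stranded poly(A) RNA. Estimated depth is the lowest one at which low values come about as close to whole reads as at any depth, since whole multiples of it fit too. At that depth 68.5% to 73.5% of them came within 0.08 reads of a whole number. The estimate used GENCODE transcript lengths, for transcripts with a single length there. The lengths behind the deposited FPKM values are not given, so no count test was run. From the FPKM, values were put on the log2(FPKM + 0.5) scale, and spread is the SD over 6 libraries of a table for genes averaging at least 1 FPKM. The culture test was limma's moderated F-test (limma 3.58.1, R 4.3.3) on genes with FPKM of at least 1 in 6 of 12 libraries, with Benjamini-Hochberg adjustment. The smallest adjusted p was 0.00827, and 5391 genes had an unadjusted p under 0.05. The p-values measure the spread between these samples only. Same-numbered Alone and BMP6 libraries were treated as pairs since labels give them the same culture and batch: their deviations from the group means correlated at r = 0.41 to 0.777, against -0.655 to 0.665 for other pairs, and 6 of 6 Alone libraries correlated best with their own sister. On simulated data with 200 changed genes, the culture test recovered 64% at a culture SD of 0.5 on the log2 scale (12083 genes run, 11 false calls) and 85.8% at an SD of 1 (12095 genes run, 4 false calls). Named genes were the 20 of highest mean FPKM in each table, the 20 of largest SD with a mean of at least 5 FPKM, the 10 of smallest SD with a mean of at least 50 FPKM, the 10 of smallest p in the culture test with a mean of at least 5 FPKM in Alone, up to 4 members of highest mean and 3 of largest SD of each of 43 lists, and a fixed set. Genes named by a number alone were passed over. Ccnd1 and Lgals1 were chosen after their values were seen. The members and lists were chosen with earlier results of these data known. The alternatives were other pseudocounts, filters, scalings and empirical Bayes options, and each library left out. Some genes are not reported here. Promoter windows and coordinates are from RefSeq (GRCm38.p6).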

Additional observations from a re-analysis of the deposited data

Results flagged for a closer look

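Of 284 list sums and gene levels looked at, 18 had 1 library whose gap to its nearest neighbour, as a share of the range over the 6 libraries of its table, was above Dixon's critical value of 0.625. About 1 in 20 sets drawn at random from a normal distribution would pass. That rate need not hold here, as many genes were picked by their spread in these libraries and the 284 overlap in genes. The flags are a description of the values. WT NAAC22 was that library in 8 cases, WT NAAC33, Alone NAAC81 and Alone NAAC120 in 2 each, and WT NAAC26, WT NAAC30, Alone NAAC76 and Alone NAAC122 in 1 each.

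The IGF axis sum was 4741 FPKM in WT NAAC22 and 2023 to 2575 FPKM in the other 5, and its largest member Igfbp2 had 3464 FPKM in WT NAAC22 and 1435 to 1883 FPKM in the other 5. The endfoot and gap junction sum was 2005 FPKM in WT NAAC22 and 2524 to 2816 FPKM in the other 5. Npvf, the precursor of RFamide neuropeptides, had 189 FPKM in WT NAAC22 and 36.1 to 87.8 FPKM in the other 5, Nptx1 had 5.28 FPKM in WT NAAC22 and 0.153 to 1.58 FPKM in the other 5, and Mir3962, a short annotated transcript, had 132 FPKM in WT NAAC22 and 9.95 to 42.1 FPKM in the other 5. S1pr3, a receptor for sphingosine phosphate, had 20.1 FPKM in WT NAAC22 and 37.9 to 47.1 FPKM in the other 5. Csnk1d, a casein kinase among the steady genes, had 47.3 FPKM in WT NAAC22 and 52.1 to 53.4 FPKM in the other 5, and in Alone it had 55.1 FPKM in Alone NAAC81 and 49.8 to 51.2 FPKM in the other 5.

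The myelin gene Mbp stood out in 1 library of each table. It had 68.9 FPKM in WT NAAC33 and 3.08 to 19.7 FPKM in the other 5. In the other table it had 60.4 FPKM in Alone NAAC120 and 3.68 to 12.8 FPKM in the other 5. The microglial sum was 38.9 FPKM in Alone NAAC120 and 22.1 to 28.2 FPKM in the other 5.

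The ribosomal protein sum was 8976 FPKM in Alone NAAC122 and 5187 to 6491 FPKM in the other 5. Ptpn11 had 59 FPKM in WT NAAC33 and 52.3 to 54.2 FPKM in the other 5, the transcriptional corepressor Ctbp1 had 54.6 FPKM in WT NAAC26 and 57.8 to 59.3 FPKM in the other 5, and Vim had 2522 FPKM in WT NAAC30 and 2042 to 2191 FPKM in the other 5. Glycam1, a mucin-like secreted protein, had 47.4 FPKM in Alone NAAC76 and 0.637 to 17.6 FPKM in the other 5, and Tinagl1, a matrix protein of vessels, had 26.7 FPKM in Alone NAAC81 and 2.85 to 10.9 FPKM in the other 5.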

How the results depend on the processing

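The count of genes that differ between cultures, 2366 with the culture number as a replicate block of the Alone and BMP6 libraries and the treatment as a term, depended on the libraries used, on the adjusted p threshold and on whether the treatment was a term. It ran over 79 to 2530 genes when each culture was left out, with 79 without culture NAAC124, 1078 without culture NAAC76, 1154 without culture NAAC120, 1250 without culture NAAC91, 2149 without culture NAAC81 and 2530 without culture NAAC122. It was 381 without the treatment term and 130 at an adjusted p under 0.01. Without cultures NAAC91 and NAAC122, left out after seeing the data, it was 2630, of which 1610 were among the 2366. The other 8 settings (pseudocounts, filters on low values, scalings and the empirical Bayes options) gave 1704 to 2731 genes. The share of the 200 genes of largest WT spread that was called, 69.7%, ran over 6.32% to 74% when each culture was left out of the test, with 37.2% without culture NAAC76, and over 62.8% to 72.1% when each WT library was left out. The share without each culture was added after seeing the data. From 80% to 89% of the most abundant genes were shared by the tables in every setting run. The median spread of the 86 lists and tables moved by more than its leave-one-out error in 61 of 1031 recomputed values, and the count of members called moved by over 1.5 times in 193 of 559. The median deviation of all genes from the table mean was -0.061 to 0.06 in WT and -0.026 to 0.035 in Alone on the log2 scale. Under median-of-ratios or quantile scaling the library with the highest or lowest median deviation stayed the same for most lists. The exceptions included lists described here. Alone NAAC91 in place of Alone NAAC122 was lowest for the ciliated and endfoot lists, Alone NAAC81 in place of Alone NAAC122 for the oligodendrocyte list, and Alone NAAC76 in place of Alone NAAC124 was highest for metallothioneins, each under 1 of the 2 scalings. In WT another library was highest for heat shock genes, highest and lowest for lysosomal genes and lowest for respiratory chain genes, under 1 of the 2 each. The depth of WT NAAC33, 10.5 M reads, limits what its low values show, and the median spread of the microglial list in WT ran over 0.203 to 1.56 with the filter and pseudocount.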

Other observations

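Interferon response genes were low in 1 culture of each table. Of 27 genes in WT, WT NAAC35 was lowest for 18, and WT NAAC22 and WT NAAC33 were highest for 12 and 11. Over all genes these shares were 10.6%, 18.8% and 30.6%. Of 26 in Alone, Alone NAAC122 was lowest for 22 and Alone NAAC76 highest for 14. These libraries also lay far apart on the leading component of Alone (57.8 and -39.3), so the Alone counts are not read as particular to interferon genes. Ifit3, an interferon-induced protein, had 15.1, 9.99, 7.43, 9.53, 5.37 and 5.46 FPKM in WT and 8.97, 6.91, 5.26, 6.21, 1.91 and 10.8 FPKM in Alone. The median SD in Alone was 0.425, and 0.283 without Alone NAAC122. Trf, the iron carrier transferrin, had 29.5, 16, 6.41, 8.95, 3.67 and 4.41 FPKM in WT and 6.9, 7.74, 38.2, 22.3, 118 and 3.68 FPKM in Alone, and Tfrc, its receptor, 33.4, 26.1, 77.6, 60.3, 106 and 29.3 FPKM in Alone, both highest in Alone NAAC122 and next in Alone NAAC91.

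Genes used as signs of reactive astrocytes did not vary as 1 set. S1pr3 had 51.7, 34.1, 1.38, 16.1, 1.13 and 37.3 FPKM in Alone and was lowest in Alone NAAC122 and Alone NAAC91, where Lcn2 was highest, while Cd44, a hyaluronan receptor, stayed within 24.6 to 37.9 FPKM. The median SD of the list in WT was 0.389, and 0.234 without WT NAAC22.

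Xist, the RNA of the inactive X chromosome, and the Y-linked genes Ddx3y, Eif2s3y, Kdm5d and Uty were above 0 in all 12 libraries. Xist had 13.4, 9.64, 2.85, 0.195, 5.67 and 4.8 FPKM in WT, lowest in WT NAAC33, and 28, 18, 18.4, 12.6, 5.87 and 16.4 FPKM in Alone, lowest in Alone NAAC122. Its SD was 1.53 in WT and 0.727 in Alone, and 0.806 without WT NAAC33 and 0.405 without Alone NAAC122. Ddx3y had 2.78, 3.0, 5.43, 10.4, 2.7 and 7.09 FPKM in WT and 5.54, 5.02, 6.79, 6.6, 8.32 and 7.57 FPKM in Alone. All 4 Y-linked genes were highest in WT NAAC33 and in Alone NAAC122.

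Malat1, a nuclear noncoding RNA, had 40.3, 32.7, 12.9, 0.934, 24.2 and 39.2 FPKM in WT, where WT NAAC33 was lowest, and 83.9, 168, 48.5, 51.9, 32.3 and 52.3 FPKM in Alone. Lars2, a mitochondrial leucyl-tRNA synthetase gene, had 82.6, 10.4, 131, 52.1, 101 and 77.3 FPKM in WT, where WT NAAC26 was lowest as for Mir6236.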
